A study of Mus musculus with 6 samples.

Results

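The 56 genes described here encode the outer and regulatory layers of Wnt signaling in the mouse: 16 Wnt ligands, 10 Frizzled receptors, 5 co-receptors or other Wnt receptors, 10 secreted inhibitors, 8 genes of the R-spondin module, 4 intracellular regulators and 3 nuclear factors. They were chosen by name from the family, with earlier results of these data known, out of 54232 gene identifiers in the count files. RNA had been sequenced from NIC+ tumors, which arise in mice whose mammary epithelium makes activated ErbB2 (Neu) and Cre recombinase together from a transgene under the viral MMTV promoter. The fx/fx group held 3 tumors (fx1, fx2 and fx3) with the genotype CdGAP fx/fx, in which both alleles of the CdGAP gene Arhgap31 carry sites for Cre. The wt/wt group held 3 tumors (wt1, wt2 and wt3) with the genotype CdGAP wt/wt, and all 6 carried the NIC transgene. Because Cre is made in the oncogene-expressing epithelium, stromal cells of an fx/fx tumor would keep their floxed alleles. The labels give no ages and do not say whether each library came from a separate animal, and a p-value here speaks only of the spread among these 6 libraries.

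Wnt ligands are lipid-modified secreted proteins that bind Frizzled receptors. With the co-receptors Lrp5 or Lrp6 they stop the degradation of beta-catenin, which then acts with Tcf and Lef factors in the nucleus, whereas Wnt5a with Ror or Ryk receptors is known for beta-catenin-independent signaling. R-spondins, bound by Lgr receptors, keep Frizzled proteins on the cell surface by holding off the ligases Rnf43 and Znrf3. In the mammary gland, Wnt4 acts downstream of progesterone in ductal side branching, Wnt1 is a classical insertion target of mouse mammary tumor virus, and Wnt signals maintain basal progenitor cells.

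Library depth was between 36732137 counts in fx2 and 53606276 counts in fx1, and 3 counts, the most that a count of 0 leaves possible, were worth between 0.056 and 0.0817 CPM (counts per 1000000 counts). Arhgap31 (ENSMUSG00000022799, chromosome 16, 38598340 to 38713274, minus strand, GRCm38) measured 156, 44.1 and 116 CPM in fx1, fx2 and fx3, against 664, 433 and 549.8 CPM in wt1, wt2 and wt3. The genotypes did not overlap, with a log2 fold change of -2.38 (SE 0.45), an edgeR adjusted p of 0.153 and a DESeq2 adjusted p of 4.7e-05. The exact 2-sided permutation test of log2 CPM gave p = 0.1, the smallest that 20 orderings allow. The luminal epithelial marker genes, which fit the labelled tissue, summed to between 4660 and 6094 CPM in fx/fx tumors and between 5417 and 5810 CPM in wt/wt tumors, with none at 0 in any library.

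Wnt gene expression in these tumors was uneven. Counts were found for 55 of the 56 genes, Dkk1 had 0 counts in every library, and 6 genes (Dkk1 among them) had 3 or fewer counts in each. Of the 56, 41 passed the filter on low counts and were tested. The untested 15 were Wnt1, Wnt2b, Wnt3, Wnt6, Wnt7a, Wnt10a, Wnt16, Fzd10, Dkk1, Sfrp5, Frzb, Notum, Rspo1, Rspo2 and Lgr5, none of which exceeded 23 counts or 0.461 CPM in a library. Among the tested genes, 35 lay above the filter level of 0.226 CPM in all 6 libraries, while Wnt4 and Wif1 were above it in the 3 fx/fx libraries only, Wnt2 was above it in every library but wt1, and Wnt9b, Wnt10b and Lef1 were above it in some libraries of either genotype. Per length, the level averaged over the 6 libraries ran from 0.165 TPM (transcripts per 1000000 transcripts) to 165 TPM for Lrp5, the co-receptor with the highest level of any of the 41, followed by Fzd9 at 156 TPM and Ryk at 105 TPM.

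No Wnt gene passed an edgeR adjusted p under 0.05, and neither did any of the 16752 genes tested (0%). With every detected gene kept, edgeR called 38 of 29540 (0.129%), none of them a Wnt gene. DESeq2, a second count test with a different estimate of the spread, called 833 of 17989 genes (4.63%). Among the Wnt genes it called 2 of the 40 with an adjusted p, the receptor Ror2 and the inhibitor Sfrp4, both higher in fx/fx tumors, a direction in which it called 2.9% of all genes. The DESeq2 count over all genes was 1626 without fx2, 412 without wt1, 508 without fx1, 547 without wt3 and 565 without wt2. At an unadjusted edgeR p under 0.05, 12 of the 41 Wnt genes differed, 11 higher and 1 lower in fx/fx tumors, beside 14.2% of all genes tested in either direction, 8.18% higher and 6.04% lower. That number was 6 without wt1 and 8 without wt2. Levels of the genotypes did not overlap for 11 of the 41, 10 of them higher in fx/fx, beside 19.7% of all genes tested, 9.74% higher and 9.93% lower. The fold change was above 0 for 29 of the 41 and below 0 for 12, with a median log2 fold change of 0.49, beside a median of -0.0043 and 49.6% above 0 over all genes tested. Without fx1 the median was 0.27. Wnt4 and Wif1, above the filter level in no wt/wt library, had to be higher in fx/fx to pass, so these counts describe the tested genes and not the whole set.

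**Figure D1:**
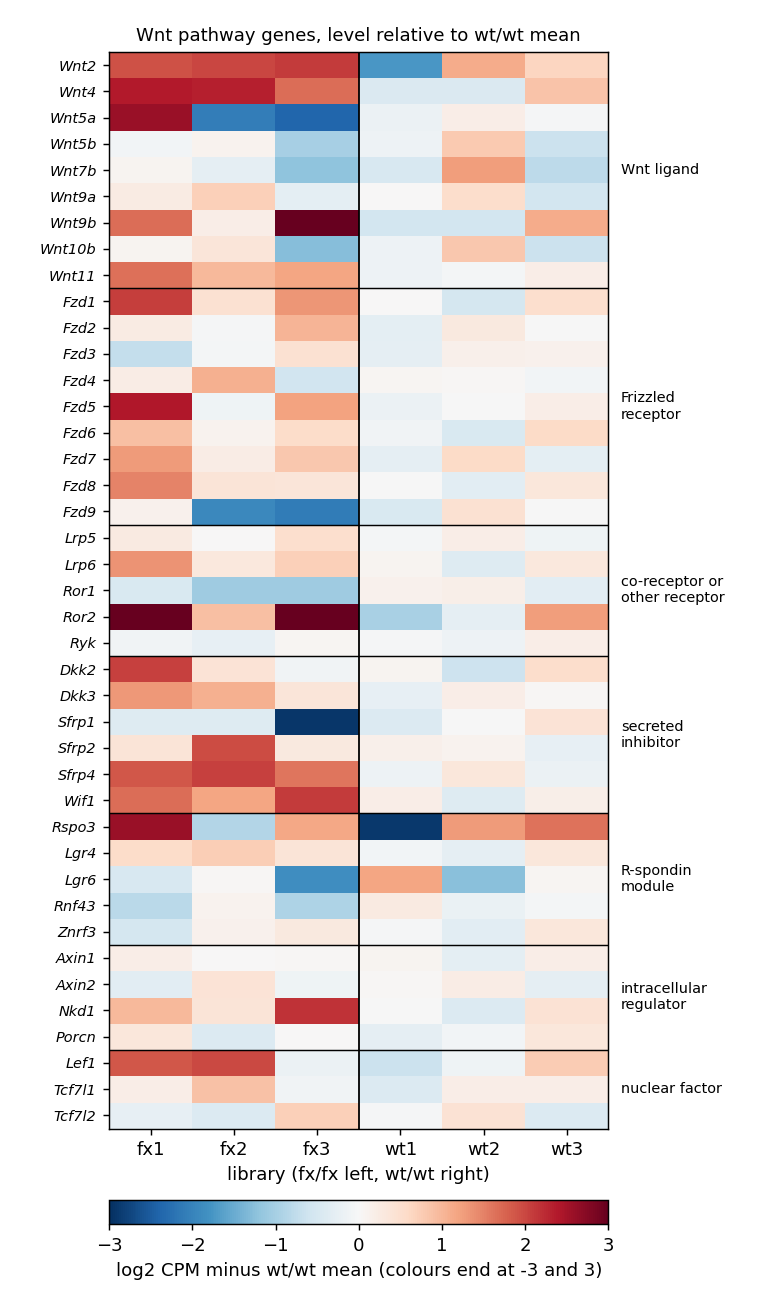
Level of each of the 41 tested Wnt genes (rows, grouped by role) in each library (columns), as log2 CPM minus the wt/wt mean of the gene, with colours ending at -3 and 3. Sfrp4, Wif1, Wnt4 and Wnt11 are higher in all 3 fx/fx libraries, Ror2 is far higher in fx1 and fx3, and Wnt5a is high in fx1 but low in fx2 and fx3.

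Ror2 had the largest log2 fold change of the 41 tested genes. Ror2 (ENSMUSG00000021464, chromosome 13, 53109312 to 53286124, minus strand, GRCm38) encodes a receptor tyrosine kinase that binds Wnt5a. It measured 57.5, 1.02 and 28.5 CPM in fx1, fx2 and fx3, against 0.244, 0.424 and 1.31 CPM in wt1, wt2 and wt3. The fx1 and fx3 tumors stood far above all others, while fx2 lay inside the wt/wt range, so that the genotypes overlapped. Per length, the fx/fx mean was 22.9 ± 23.0 TPM and the wt/wt mean was 0.511 ± 0.429 TPM (SD, n = 3 each). The log2 fold change was 5.45 (SE 1.41), with an edgeR adjusted p of 0.210 and a DESeq2 adjusted p of 0.00448. The DESeq2 call was lost without fx1 (adjusted p = 0.100), without wt1 (0.0595) and without wt2 (0.0529), was kept without fx3 (0.0321) and without wt3 (0.00445), and reached 8.8e-16 without fx2.

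The sequence around the annotated start of Ror2 is shown because this gene had the largest fold change, and those of Wnt11 and Fzd7 because they hold letters bound by Tcf and Lef factors. Of the 6 Wnt genes whose window holds such letters, the others being Dkk1, Wnt3, Wnt5b and Tcf7l2, this pair had the smallest unadjusted p among the tested ones and was chosen with the values known. Each window covers 250 bases before to 50 bases after a RefSeq transcript start on GRCm38.p6, printed 5′ to 3′ along the gene's strand. Capitals mark a match, on either strand, to the core motif written CTTTGAT, to the variant of it that reads CTTTGAA, or to the other variant, which reads CTTTGTT.
Ror2, chr13:53286075-53286374, minus strand: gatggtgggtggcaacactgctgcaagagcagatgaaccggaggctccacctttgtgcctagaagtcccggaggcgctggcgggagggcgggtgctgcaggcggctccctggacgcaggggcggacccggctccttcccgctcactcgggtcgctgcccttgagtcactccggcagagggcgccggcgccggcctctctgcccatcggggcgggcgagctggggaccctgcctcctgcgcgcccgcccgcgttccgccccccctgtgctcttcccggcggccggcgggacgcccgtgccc
Wnt11, chr7:98834862-98835161, plus strand: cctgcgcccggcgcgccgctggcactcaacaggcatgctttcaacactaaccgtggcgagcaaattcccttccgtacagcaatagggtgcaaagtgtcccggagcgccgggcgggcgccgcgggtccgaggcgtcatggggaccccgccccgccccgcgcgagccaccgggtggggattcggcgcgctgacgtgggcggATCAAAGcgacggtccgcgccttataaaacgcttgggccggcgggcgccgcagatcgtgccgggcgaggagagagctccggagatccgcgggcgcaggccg
Fzd7, chr1:59481897-59482196, plus strand: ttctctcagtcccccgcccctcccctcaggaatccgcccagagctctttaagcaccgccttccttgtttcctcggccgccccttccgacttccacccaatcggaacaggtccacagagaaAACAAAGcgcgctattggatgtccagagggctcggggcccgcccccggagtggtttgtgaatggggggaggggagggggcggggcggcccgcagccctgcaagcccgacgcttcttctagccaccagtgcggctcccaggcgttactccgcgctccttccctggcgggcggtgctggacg
The Ror2 window held no match. In Wnt11 the match began 51 bases before the start, and in Fzd7 it began 130 bases before it, both reading on the opposite strand. The promoter table covered 37 of the 56 Wnt genes in 45 windows, of which 6 windows (13.3%) held a match, beside 4558 of all 32851 windows (13.9%). The share in Wnt genes was thus close to that of all windows, and a match describes letters only, not a bound site.

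By their median, genes around Ror2 were close to the wt/wt mean. Over 131 tested protein-coding genes within 10 Mb, the median of log2 CPM minus the wt/wt mean was 0.15, 0.01 and 0.11 in fx1, fx2 and fx3. Msx2, a homeobox gene and known Wnt and BMP target 358 kb away, was singled out after its values were seen. It measured 6.31, 0.295 and 1.70 CPM in fx1, fx2 and fx3, against 0.0665, 0.0447 and 1.16 CPM in wt1, wt2 and wt3. It was highest in the same pair of tumors as Ror2, with an edgeR adjusted p of 0.437. Sptlc1, at 223 kb, had 97.5, 54.2 and 89.4 CPM in fx1, fx2 and fx3, against 81.9, 64.5 and 85.8 CPM in wt1, wt2 and wt3, with overlapping genotypes. The noncoding RNA gene 9530014B07Rik, at 527 kb, was low in level and did not overlap. It measured 0.264, 0.429 and 1.14 CPM in fx1, fx2 and fx3, against 0.0443, 0.0223 and 0.218 CPM in wt1, wt2 and wt3. Its log2 fold change was 2.64, with an unadjusted edgeR p of 0.0192.

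The other receptors outside the Frizzled family were less variable. Ror1, the paralog of Ror2, measured 8.26, 5.44 and 5.43 CPM in fx1, fx2 and fx3, against 12.5, 12.8 and 9.19 CPM in wt1, wt2 and wt3. All fx/fx tumors lay below all wt/wt tumors, opposite in direction to Ror2, and Ror1 was the only Wnt gene that was lower at an unadjusted p under 0.05. Its log2 fold change was -0.85 (SE 0.30), with an edgeR adjusted p of 0.274. Tested genes within 10 Mb of Ror1 on chromosome 4 were also lower, with a median of log2 CPM minus the wt/wt mean of -0.61, -0.09 and -0.70 in fx1, fx2 and fx3, beside -0.46, -1.06 and -1.06 for Ror1 itself. In fx1 and fx3 both Ror1 and its neighbours were lower, and in fx2 Ror1 was lower with its neighbours near the wt/wt mean. The part of these neighbouring levels in the Ror1 result was not tested.

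Lrp6, a co-receptor needed for beta-catenin signaling, measured 534, 259.7 and 342 CPM in fx1, fx2 and fx3, against 221, 159 and 259 CPM in wt1, wt2 and wt3. The genotypes touched but did not overlap, and the log2 fold change was 0.83 (SE 0.31), with an edgeR adjusted p of 0.302. Its close relative Lrp5 measured 526, 438 and 619 CPM in fx1, fx2 and fx3, against 419, 498 and 398 CPM in wt1, wt2 and wt3. Here the groups overlapped, with a log2 fold change of 0.27 (SE 0.21). Ryk, an atypical kinase that binds Wnts, measured 137, 123 and 154 CPM in fx1, fx2 and fx3, against 143, 132 and 169.5 CPM in wt1, wt2 and wt3, a log2 fold change of -0.11 (SE 0.18). Ryk lay within the wt/wt range in fx1 and fx3 and slightly below it in fx2.

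**Figure D2:**
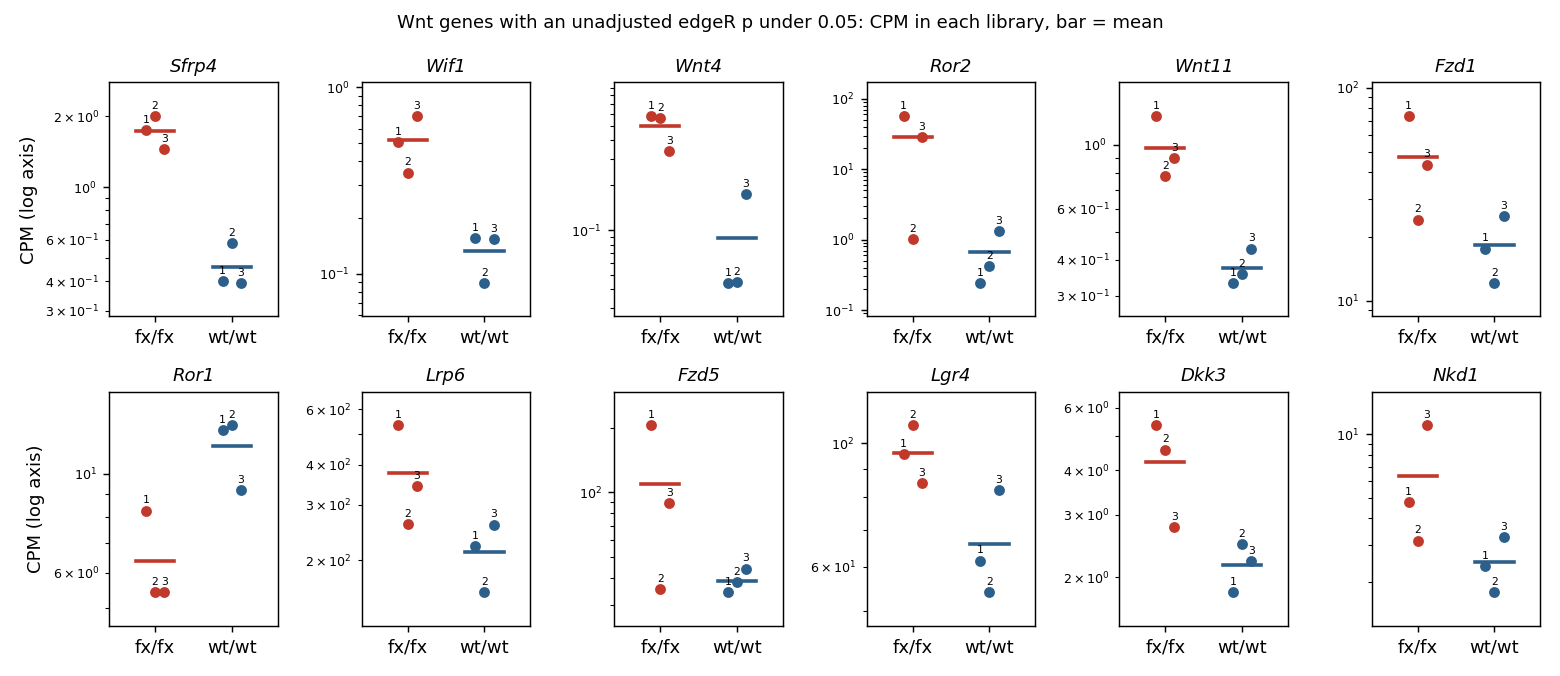
CPM on a log axis in each library for the 12 Wnt genes with an unadjusted edgeR p under 0.05; points are libraries with their replicate number, fx/fx on the left and wt/wt on the right, and horizontal bars are means. Ror1 is the 1 gene that is lower in fx/fx, and in Ror2, Fzd1, Fzd5 and Nkd1 the point of fx2 falls among the wt/wt points.

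Among the ligands, 9 of 16 genes were tested, 6 with a fold change above 0 and 3 below, beside 49.6% above 0 over all genes tested. Their median log2 fold change of 1.11 is the value of Wnt5a itself, which turned to -2.26 without fx1. Wnt4 and Wnt11, 2 of the 9, had an unadjusted p under 0.05, both higher in fx/fx, beside 8.18% of all genes in that direction, and Wnt4 could pass the filter only as a gene higher in fx/fx. Wnt4 (ENSMUSG00000036856, chromosome 4, 137277489 to 137299726, plus strand, GRCm38) measured 0.584, 0.562 and 0.340 CPM in fx1, fx2 and fx3, against 0.0443, 0.0447 and 0.175 CPM in wt1, wt2 and wt3. These levels rest on 31, 21 and 14 counts in fx1, fx2 and fx3, against 2, 2 and 8 counts in wt1, wt2 and wt3. The genotypes did not overlap, but 2 of the wt/wt values were below the 3 counts that 0 allows. The log2 fold change was 2.45 (SE 0.63), with an edgeR adjusted p of 0.196 and a DESeq2 adjusted p of 0.0515, which ran from 0.0289 to 0.314 with a library left out and was under 0.05 in 1 of these 6 fits, the one without wt3. Wnt4 was higher although the 219 tested genes within 10 Mb were lower, with medians of -0.67, -0.24 and -0.78 in fx1, fx2 and fx3 on the log2 scale relative to the wt/wt mean.

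Wnt11 (ENSMUSG00000015957, chromosome 7, 98835112 to 98855195, plus strand, GRCm38), a ligand known mostly for beta-catenin-independent signaling, measured 1.26, 0.777 and 0.898 CPM in fx1, fx2 and fx3, against 0.332, 0.357 and 0.437 CPM in wt1, wt2 and wt3. Every fx/fx tumor was above every wt/wt tumor, at a mean of 0.978 ± 0.252 CPM against 0.375 ± 0.0545 CPM in wt/wt (SD, n = 3 each). The log2 fold change was 1.38 (SE 0.39), with an edgeR adjusted p of 0.218 and a DESeq2 adjusted p of 0.0773. Wnt2, a ligand expressed in mammary stroma, measured 0.809, 0.857 and 0.922 CPM in fx1, fx2 and fx3, against 0.0222, 0.447 and 0.306 CPM in wt1, wt2 and wt3. The genotypes did not overlap here either. The wt1 value was 1 count, and the log2 fold change of 1.73 had an SE of 0.76 and an edgeR adjusted p of 0.357.

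The ligand with the highest level, Wnt5a, had no single direction. Wnt5a (ENSMUSG00000021994, chromosome 14, 28504750 to 28527448, plus strand, GRCm38), the main ligand of Ror receptors, measured 68.1, 2.62 and 2.11 CPM in fx1, fx2 and fx3, against 9.88, 12.9 and 11.005 CPM in wt1, wt2 and wt3. The fx1 tumor was above all wt/wt tumors and the other two fx/fx tumors were below all of them. The log2 fold change was 1.11 (SE 1.23), with an edgeR adjusted p of 0.740 and no DESeq2 adjusted p, and it turned to -2.26 without fx1, where the edgeR adjusted p was 0.291 and the DESeq2 adjusted p was 5.6e-10. Limma-voom gave a log2 fold change of -0.48 with all 6 tumors. Thus fx1 was high in both Wnt5a and Ror2, fx3 was high in Ror2 and low in Wnt5a, and fx2 was low in Wnt5a with Ror2 inside the wt/wt range.

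Wnt5b and Wnt9a, the next ligands by level per length, overlapped between genotypes. Wnt5b measured 3.28, 3.72 and 1.72 CPM in fx1, fx2 and fx3, against 3.12, 6.03 and 2.21 CPM in wt1, wt2 and wt3, a log2 fold change of -0.38 (SE 0.49). Wnt9a measured 2.22, 3.05 and 1.50 CPM in fx1, fx2 and fx3, against 1.88, 2.70 and 1.24 CPM in wt1, wt2 and wt3, a log2 fold change of 0.22 (SE 0.44). Both changed sign when some libraries were left out. The remaining tested ligands Wnt7b, Wnt9b and Wnt10b overlapped too, with log2 fold changes of -0.68 (SE 0.65), 2.14 (SE 0.95) and -0.28 (SE 0.65). The classical oncogenic ligands were at or near the detection limit: Wnt1 had 0, 1 and 3 counts in fx1, fx2 and fx3, against 0 in each wt/wt library, and Wnt3 had 1 count in fx3 and 0 elsewhere.

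Summed over the 16 ligands, the level per length was 41.2, 13.0 and 8.03 TPM in fx1, fx2 and fx3, against 11.2, 20.7 and 10.4 TPM in wt1, wt2 and wt3. Wnt5a made up 72.9%, 8.75% and 10.6% of that sum in fx1, fx2 and fx3, against 36.7%, 27.6% and 43.8% in wt1, wt2 and wt3. Wnt5a alone thus held most of the sum in fx1, while in fx2 and fx3 Wnt5b held the largest share, at 36.6% and 25.4%. In bulk tumor RNA such as this, fewer cells of a type and less RNA per cell cannot be told apart.

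**Figure D3:**
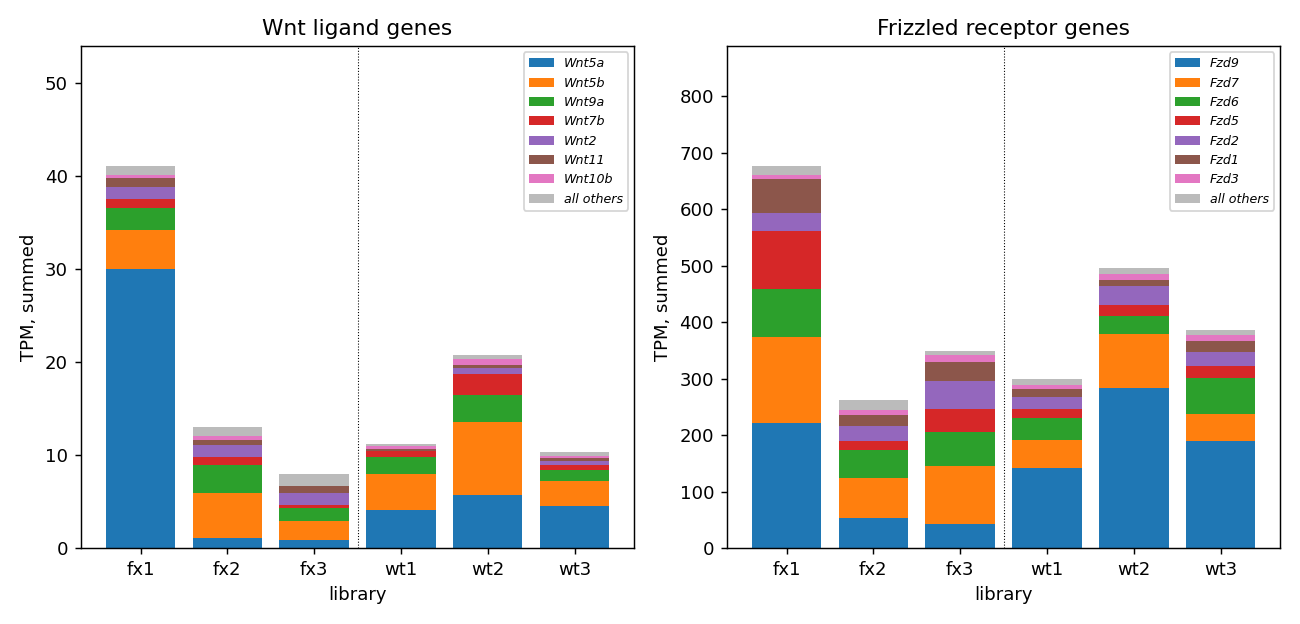
Summed TPM of the 16 Wnt ligand genes (left) and the 10 Frizzled genes (right) in each library, stacked by gene, with fx/fx libraries left of wt/wt libraries. Wnt5a fills 72.9% of the ligand bar in fx1, and Fzd9 fills a smaller share of the Frizzled bar in every fx/fx library (12.4% to 32.8%) than in any wt/wt library (47.4% to 57.4%).

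All Frizzled genes but Fzd10 were tested, and 7 of these 9 had a fold change above 0, beside 49.6% of all genes tested. Their median log2 fold change was 0.49. Fzd1 and Fzd5, both receptors that can signal through beta-catenin, had an unadjusted p under 0.05, both higher, beside 8.18% of all genes in that direction. Fzd1 measured 73.8, 24.0 and 43.5 CPM in fx1, fx2 and fx3, against 17.5, 12.1 and 24.9 CPM in wt1, wt2 and wt3. Only fx2 fell inside the wt/wt range, and the log2 fold change was 1.37 (SE 0.43), with an edgeR adjusted p of 0.243 and a DESeq2 adjusted p of 0.0623. Fzd5 measured 205, 35.5 and 89.0 CPM in fx1, fx2 and fx3, against 34.4, 38.2 and 44.3 CPM in wt1, wt2 and wt3. Again fx1 and fx3 were above all wt/wt tumors and fx2 was among them, with a log2 fold change of 1.50 (SE 0.56), an edgeR adjusted p of 0.303 and a DESeq2 adjusted p of 0.0960. DESeq2 called both genes in 1 of 6 fits with a library left out, the one without fx2, over a range of adjusted p of 0.00328 to 0.413 for Fzd1 and 3.3e-04 to 0.650 for Fzd5. Without fx1 the log2 fold change was 0.88 for Fzd1 and 0.66 for Fzd5.

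Fzd9 (ENSMUSG00000049551, chromosome 5, 135248938 to 135251230, minus strand, GRCm38) was the Frizzled gene with the highest level per length. It measured 148, 35.7 and 31.5 CPM in fx1, fx2 and fx3, against 99.6, 187 and 135 CPM in wt1, wt2 and wt3. As with Wnt5a, fx2 and fx3 were below all wt/wt tumors and fx1 was not. The log2 fold change was -0.97 (SE 0.61), with an edgeR adjusted p of 0.520, and it was -2.07 without fx1 (edgeR adjusted p = 0.298, DESeq2 adjusted p = 1.9e-06). Its share of the summed Frizzled TPM was 32.8%, 20.05% and 12.4% in fx1, fx2 and fx3, against 47.4%, 57.4% and 49.1% in wt1, wt2 and wt3, so that the shares did not overlap. The Frizzled sum itself was 677, 263 and 350 TPM in fx1, fx2 and fx3, against 299, 495 and 386 TPM in wt1, wt2 and wt3, and overlapped.

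Fzd7, a receptor linked to beta-catenin signaling in basal-type mammary cells, held a larger share of that sum in fx/fx tumors. It measured 199, 96.3 and 146 CPM in fx1, fx2 and fx3, against 68.3, 123 and 67.8 CPM in wt1, wt2 and wt3, a log2 fold change of 0.77 (SE 0.34) with an edgeR adjusted p of 0.359. Its share of the Frizzled TPM was 22.4%, 27.4% and 29.1% in fx1, fx2 and fx3, against 16.4%, 19.0% and 12.5% in wt1, wt2 and wt3. The CPM values overlapped, through fx2, but the shares did not. A share depends on the other genes in the sum, and the Fzd9 share was lower in every fx/fx tumor. The Fzd7 share is therefore not a result apart from that of Fzd9. Fzd6, a receptor of planar polarity, measured 118, 68.8 and 93.7 CPM in fx1, fx2 and fx3, against 59.1, 46.4 and 94.9 CPM in wt1, wt2 and wt3, with overlap and a log2 fold change of 0.49 (SE 0.31). Fzd8 measured 8.96, 4.15 and 4.15 CPM in fx1, fx2 and fx3, against 3.17, 2.55 and 4.02 CPM in wt1, wt2 and wt3. Fzd8 did not overlap, but the gap was narrow, and the log2 fold change was 0.83 (SE 0.42) with an edgeR adjusted p of 0.421. Fzd2, Fzd3 and Fzd4 had log2 fold changes of 0.46 (SE 0.31), -0.04 (SE 0.30) and 0.39 (SE 0.39), all with overlap.

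Among the secreted inhibitors, Sfrp4 was the 1 gene called by DESeq2. Of 10 genes, 6 were tested and 3 (Sfrp4, Wif1 and Dkk3) had an unadjusted p under 0.05, all higher in fx/fx, beside 8.18% of all genes in that direction, and Wif1 could pass the filter only as a gene higher in fx/fx. Sfrp4 (ENSMUSG00000021319, chromosome 13, 19623104 to 19632994, plus strand, GRCm38), a secreted Frizzled-related protein, measured 1.75, 2.01 and 1.46 CPM in fx1, fx2 and fx3, against 0.399, 0.581 and 0.393 CPM in wt1, wt2 and wt3. These were 93, 75 and 60 counts in fx1, fx2 and fx3, against 18, 26 and 18 counts in wt1, wt2 and wt3. The lowest fx/fx tumor was well above the highest wt/wt tumor, with a mean of 1.74 ± 0.277 CPM in fx/fx and 0.458 ± 0.107 CPM in wt/wt tumors (SD, n = 3 each). Sfrp4 passed the DESeq2 test and rose 3.78-fold, with a log2 fold change of 1.92 (SE 0.38), a DESeq2 adjusted p of 6.7e-04 and an edgeR adjusted p of 0.164. It was called by DESeq2 with each of the 6 libraries left out in turn, with adjusted p between 0.00136 and 0.0152. Among the Wnt genes it had the smallest edgeR adjusted p.

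Wif1, which binds Wnt ligands directly, measured 0.508, 0.348 and 0.703 CPM in fx1, fx2 and fx3, against 0.155, 0.0894 and 0.153 CPM in wt1, wt2 and wt3. The genotypes did not overlap, on 27, 13 and 29 counts in fx1, fx2 and fx3, against 7, 4 and 7 counts in wt1, wt2 and wt3. The log2 fold change was 1.95 (SE 0.49), with an edgeR adjusted p of 0.189 and a DESeq2 adjusted p of 0.0755. Dkk3, a divergent member of the Dickkopf family, measured 5.36, 4.58 and 2.77 CPM in fx1, fx2 and fx3, against 1.82, 2.48 and 2.23 CPM in wt1, wt2 and wt3. It too did not overlap, with fx3 close to wt2, and the log2 fold change was 0.96 (SE 0.37) with an edgeR adjusted p of 0.310. Sfrp2, a Frizzled-related protein of fibroblasts, measured 2.39, 7.20 and 2.23 CPM in fx1, fx2 and fx3, against 2.02, 1.94 and 1.51 CPM in wt1, wt2 and wt3. Only fx2 stood well apart, and the log2 fold change was 1.11 (SE 0.53) with an edgeR adjusted p of 0.395.

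Sfrp1, the inhibitor with the highest level, measured 72.3, 72.7 and 12.4 CPM in fx1, fx2 and fx3, against 71.6, 94.7 and 126 CPM in wt1, wt2 and wt3. The fx3 tumor was far below all others while fx1 and fx2 lay inside the wt/wt range, and the log2 fold change was -0.89 (SE 0.60) with an edgeR adjusted p of 0.548. Sfrp1 held 76.3%, 73.4% and 48.9% of the summed inhibitor TPM in fx1, fx2 and fx3, against 88.7%, 91.2% and 93.2% in wt1, wt2 and wt3. The shares did not overlap, but a share depends on the other genes in the sum. Dkk2 had a log2 fold change of 1.04 (SE 0.63), with overlap. Among the inhibitors below the filter, Sfrp5 had 5, 12 and 8 counts in fx1, fx2 and fx3, against 3, 2 and 0 counts in wt1, wt2 and wt3, and Frzb had 23, 3 and 2 counts in fx1, fx2 and fx3, against 0, 1 and 2 counts in wt1, wt2 and wt3. The CPM values of both did not overlap, but the counts were too low for the test. Notum, which removes the Wnt lipid, had 1 count in all, in wt2.

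**Figure D4:**
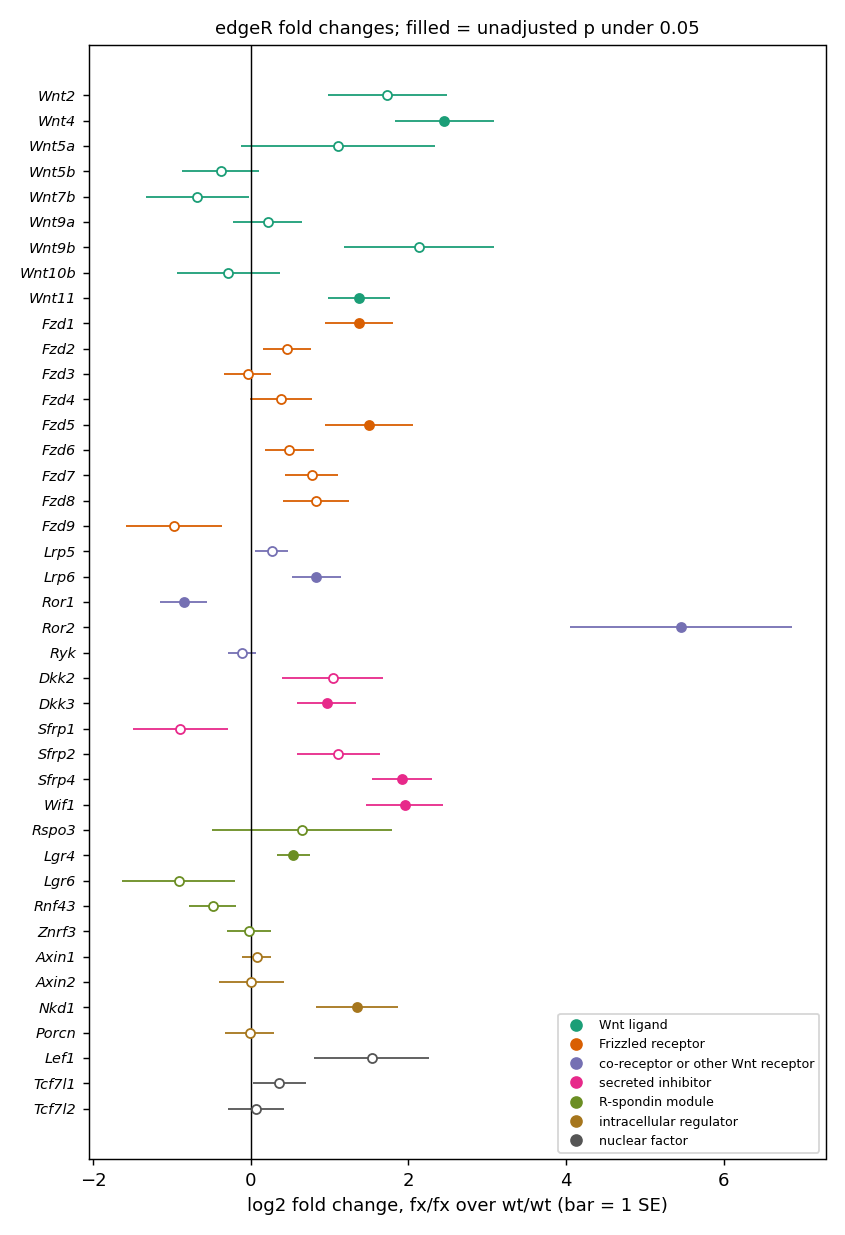
Log2 fold change, fx/fx over wt/wt, of each of the 41 tested Wnt genes from edgeR (points) with 1 SE on each side (bars), colored by role; filled points have an unadjusted p under 0.05. Ror2 lies farthest from 0 at 5.45 with an SE of 1.41, Sfrp4 at 1.92 has an SE of 0.38, and Axin2, Znrf3 and Porcn lie close to 0.

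In the R-spondin module the median log2 fold change was -0.02 over 5 tested genes. Lgr4, the receptor of the module with the highest level, measured 95.5, 108 and 84.9 CPM in fx1, fx2 and fx3, against 61.6, 54.1 and 82.5 CPM in wt1, wt2 and wt3. The genotypes did not overlap, with fx3 close to wt3, and the log2 fold change was 0.54 (SE 0.21) with an edgeR adjusted p of 0.310. Tested genes within 10 Mb of Lgr4 had medians of -0.10, 0.37 and 0.05 in fx1, fx2 and fx3 on the log2 scale relative to the wt/wt mean. Lgr4 itself was at 0.56, 0.73 and 0.39 on that scale. Lgr4 and its neighbours were highest in fx2, and in fx1 and fx3 Lgr4 was higher with its neighbours near the wt/wt mean. The part of the neighbours in the Lgr4 result was not tested.

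Rnf43, a ligase that removes Frizzled from the membrane, measured 66.03, 124 and 61.6 CPM in fx1, fx2 and fx3, against 139, 102 and 111 CPM in wt1, wt2 and wt3. It was below all wt/wt tumors in fx1 and fx3 and within their range in fx2, with a log2 fold change of -0.48 (SE 0.30) and an edgeR adjusted p of 0.510. Tested genes within 10 Mb had medians of -0.31, 0.03 and -0.57 in fx1, fx2 and fx3 on the log2 scale, beside -0.82, 0.09 and -0.92 for Rnf43, and their part was not tested. Its homolog Znrf3 measured 19.8, 31.5 and 34.8 CPM in fx1, fx2 and fx3, against 27.9, 23.0 and 36.4 CPM in wt1, wt2 and wt3, a log2 fold change of -0.02 (SE 0.27). Rspo3, an R-spondin ligand, measured 22.7, 2.01 and 8.34 CPM in fx1, fx2 and fx3, against 0.465, 9.02 and 11.5 CPM in wt1, wt2 and wt3. Rspo3 was described after its values were seen: the lowest library was wt1 and the highest fx1, and the log2 fold change of 0.65 (SE 1.14) turned to -0.45 without fx1. Rspo1, below the filter, had 9, 6 and 19 counts in fx1, fx2 and fx3, against 5, 6 and 3 counts in wt1, wt2 and wt3, without overlap in CPM. Lgr6 overlapped, with a log2 fold change of -0.91 (SE 0.72), and Lgr5, a stem cell marker, did not exceed 10 counts in a library.

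Of the 4 intracellular regulators and 3 nuclear factors, all tested, 1 had an unadjusted p under 0.05, beside 14.2% of all genes tested. That gene, Nkd1, a feedback inhibitor that binds Dishevelled, measured 4.78, 3.13 and 11.01 CPM in fx1, fx2 and fx3, against 2.37, 1.79 and 3.25 CPM in wt1, wt2 and wt3. It was highest in fx3, fx2 fell just under wt3, and the log2 fold change was 1.35 (SE 0.52) with an edgeR adjusted p of 0.310. Axin2, the feedback gene most often used as a readout of beta-catenin signaling, measured 0.358, 0.616 and 0.412 CPM in fx1, fx2 and fx3, against 0.465, 0.536 and 0.371 CPM in wt1, wt2 and wt3. Axin2 was low in every tumor, 17 to 24 counts, and its log2 fold change was 0.01 (SE 0.41), on either side of 0 depending on the scaling and the libraries kept. Its values are given for that role and not by the rule for named genes.

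Axin1, a scaffold of the complex that degrades beta-catenin, measured 74.8, 65.5 and 66.1 CPM in fx1, fx2 and fx3, against 68.8, 53.2 and 74.0 CPM in wt1, wt2 and wt3. Porcn, the enzyme that attaches the lipid to Wnt ligands, measured 10.4, 6.13 and 8.34 CPM in fx1, fx2 and fx3, against 6.78, 7.82 and 10.5 CPM in wt1, wt2 and wt3. Both overlapped, with log2 fold changes of 0.07 (SE 0.18) and -0.01 (SE 0.31). Among the nuclear factors, Tcf7l2 measured 24.8, 22.0 and 48.2 CPM in fx1, fx2 and fx3, against 28.7, 39.8 and 22.2 CPM in wt1, wt2 and wt3. Tcf7l1, which acts mostly as a repressor, measured 11.4, 18.4 and 9.24 CPM in fx1, fx2 and fx3, against 7.49, 11.5 and 11.4 CPM in wt1, wt2 and wt3. Lef1 was far lower in level, at 0.847, 0.911 and 0.170 CPM in fx1, fx2 and fx3, against 0.111, 0.179 and 0.371 CPM in wt1, wt2 and wt3. All 3 factors overlapped, with log2 fold changes of 0.07 (SE 0.35), 0.36 (SE 0.34) and 1.53 (SE 0.73) for Tcf7l2, Tcf7l1 and Lef1.

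Genes elsewhere in the pathway, taken from 5 lists, also gave no edgeR call. Among 14 destruction complex and Dishevelled genes, all tested, 10 had a fold change above 0, beside 49.6% of all genes tested. An unadjusted p under 0.05 was found for 1 of them, beside 14.2% of all genes tested. That gene was Gsk3b, the kinase that marks beta-catenin for degradation, at 231, 155 and 221 CPM in fx1, fx2 and fx3, against 145, 143 and 144 CPM in wt1, wt2 and wt3. Its log2 fold change was 0.49 (SE 0.20), with an edgeR adjusted p of 0.320, and Amer1, an adaptor of the complex, had a log2 fold change of -0.44 (SE 0.19, edgeR adjusted p = 0.356). Of 12 nuclear co-factors, 6 were above 0 and 6 below, with the co-repressor Tle3 at -0.60 (SE 0.23, edgeR adjusted p = 0.305) and Ctnnbip1, which blocks beta-catenin from binding Tcf factors, at -0.33 (SE 0.21). Of 14 family members outside the set, 5 were tested and none had an unadjusted p under 0.05; the feedback inhibitors Nkd2 and Apcdd1 had log2 fold changes of 1.27 (SE 0.68) and 0.88 (SE 0.49).

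Canonical target genes outside the set numbered 17, of which 14 were tested. Tcf7, Nkd2 and Apcdd1 are among these and were already counted in the lists above. The fold change was above 0 for 13 of the 14, beside 49.6% of all genes tested, and 2 had an unadjusted p under 0.05, beside 14.2%. DESeq2 called 1 of them, Bambi, beside 4.63% of all genes called. Bambi, a decoy receptor of TGF-beta and BMP signaling, measured 27.9, 6.86 and 17.8 CPM in fx1, fx2 and fx3, against 3.72, 5.54 and 7.62 CPM in wt1, wt2 and wt3. The fx2 value lay inside the wt/wt range. Its DESeq2 adjusted p was 0.0371, and the call was lost in 4 of 6 fits with a library left out, being kept without fx2 and without wt3, over a range of 1.2e-04 to 0.332. In the planar cell polarity and calcium branch, 15 of 16 genes were tested, 4 had an unadjusted p under 0.05, all higher, beside 8.18% of all genes in that direction. DESeq2 called 1 of them, Dact1, a modulator of Dishevelled, beside 4.63% of all genes called. Dact1 measured 2.82, 3.80 and 1.77 CPM in fx1, fx2 and fx3, against 1.02, 1.12 and 1.05 CPM in wt1, wt2 and wt3, without overlap, a 2.63-fold difference with an edgeR adjusted p of 0.217 and a DESeq2 adjusted p of 0.0212. That call was kept without fx3 and lost with any other library left out, over a range of 0.00133 to 0.122.

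Markers of other cell types differed between the same libraries. The score of a list was the mean over its tested markers of log2 CPM minus the wt/wt mean. For fibroblasts it was 1.35, 1.69 and 0.72 in fx1, fx2 and fx3, against -0.02, 0.26 and -0.24 in wt1, wt2 and wt3. All 12 fibroblast markers were tested, and 11 had an unadjusted edgeR p under 0.05, all 11 higher in fx/fx, beside 8.18% of all genes. DESeq2 called 7 of the 12, beside 4.63% of all genes, and no fibroblast marker was at 0 in any library. Their summed level was between 839 and 1538 CPM in fx/fx tumors and between 317 and 540 CPM in wt/wt tumors. Sfrp2, Sfrp4 and Wnt2 are known products of fibroblasts, and the part of fibroblast content in their values was not tested.

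Scores of several other cell types differed between the genotypes as well. The endothelial score was 1.18, 0.98 and 0.21 in fx1, fx2 and fx3, against 0.12, -0.15 and 0.03 in wt1, wt2 and wt3, with a sum of 199.7 to 389 CPM in fx/fx tumors and 162 to 193 CPM in wt/wt tumors. Basal or myoepithelial markers scored 1.18, 1.02 and 0.63 in fx1, fx2 and fx3, against -0.08, 0.22 and -0.14 in wt1, wt2 and wt3, with a sum of 66.7 to 89.3 CPM in fx/fx tumors and 38.8 to 45.6 CPM in wt/wt tumors. Adipocyte markers scored 1.99, 3.89 and 2.46 in fx1, fx2 and fx3, against 1.70, -0.91 and -0.79 in wt1, wt2 and wt3, and 1 of these 10 was at 0 in a library. The luminal epithelial score was 0.22, 0.21 and 0.36 in fx1, fx2 and fx3, against 0.03, 0.08 and -0.11 in wt1, wt2 and wt3. These 5 scores did not overlap between genotypes, the endothelial and luminal ones by a narrow margin. The luminal marker sum did overlap, being lowest in fx1 and fx2. It was 4660 to 6094 CPM in fx/fx tumors and 5417 to 5810 CPM in wt/wt tumors. Of the 10 luminal markers, 7 had a fold change above 0 and 3 below, beside 49.6% above 0 over all genes tested. An unadjusted edgeR p under 0.05 was found for 2 of the 10, both higher, beside 8.18% of all genes in that direction. The fx2 tumor had the highest fibroblast and adipocyte scores, the highest Sfrp2 and Sfrp4 levels, and a Ror2 level inside the wt/wt range. Wnt2, also named above as a fibroblast product, did not follow that order. It was highest in fx3, at 0.922 CPM, where the fibroblast score was the lowest of the fx/fx tumors, at 0.72. The part of the cell types in the Wnt gene results, those of Ror2 included, was not tested. Mast cell, pericyte and hormone-sensing luminal scores were also apart, at 1.22 to 1.72, 0.52 to 1.20 and 0.24 to 0.73 in fx/fx tumors, against -0.25 to 0.15, -0.29 to 0.30 and -0.05 to 0.03 in wt/wt tumors. The summed level of the mast cell markers overlapped and did not follow the score, being highest in wt1 and wt3, at 562, 736 and 616 CPM in fx1, fx2 and fx3, against 1032, 622 and 1382 CPM in wt1, wt2 and wt3. The mast cell list shares Kit with the luminal epithelial list, so its sum is not one of mast cell genes alone. Of its 6 tested genes, 5 were higher in fx/fx without overlap, beside 9.74% of all genes tested, and 1 had a fold change below 0. Pericyte markers summed to between 366 and 442 CPM in fx/fx tumors and between 234 and 337 CPM in wt/wt tumors, and hormone-sensing luminal markers to between 165 and 277 CPM in fx/fx tumors and between 134 and 163 CPM in wt/wt tumors. Of the 7 tested hormone-sensing luminal markers, 5 had a fold change above 0 and 2 below. An unadjusted edgeR p under 0.05 was found for 1 of the 7, which was higher, beside 8.18% of all genes in that direction. Myeloid, lymphoid, skeletal muscle and nerve scores overlapped, at -0.58 to 0.52, -1.07 to 0.52, -2.08 to 1.28 and 0.04 to 0.61 in fx/fx tumors, against -0.24 to 0.13, -1.07 to 0.80, -0.40 to 0.74 and -0.19 to 0.16 in wt/wt tumors.

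**Figure D5:**
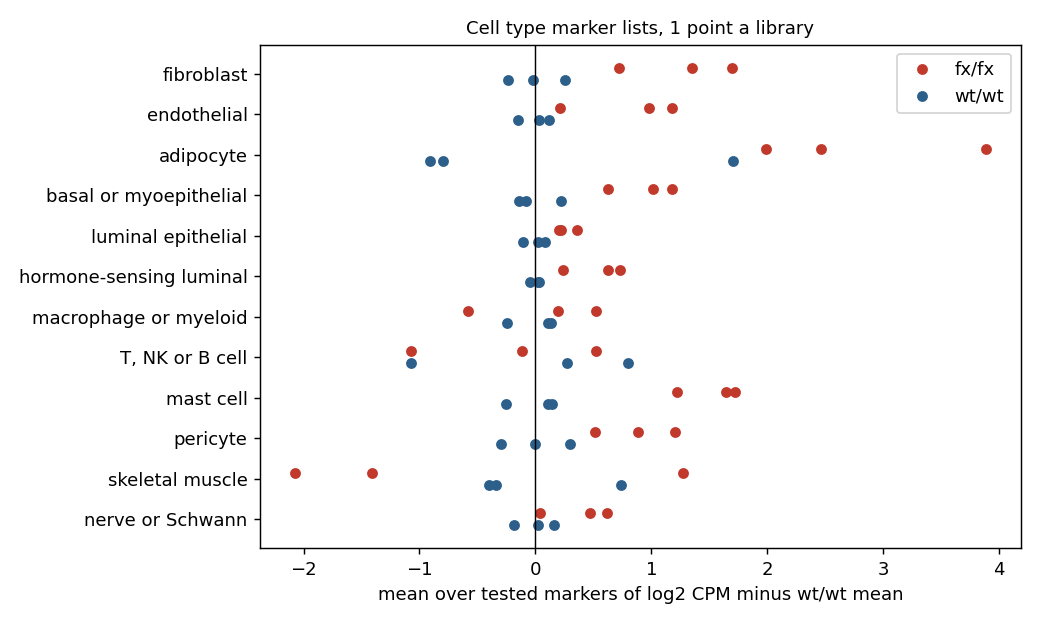
Score of 12 cell type marker lists (rows) in each library, as the mean over tested markers of log2 CPM minus the wt/wt mean; each point is 1 library, fx/fx and wt/wt in different colors. Fibroblast scores lie between 0.72 and 1.69 in fx/fx and between -0.24 and 0.26 in wt/wt, and luminal epithelial scores lie between 0.21 and 0.36 in fx/fx and between -0.11 and 0.08 in wt/wt.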

How the data were processed

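The deposited files held raw read-pair counts for each gene, made by the authors with featureCounts 1.6.0 (reverse-stranded) on Ensembl release 93, GRCm38, per the file headers. The submitters' processing notes name STAR 2.5.1b, featureCounts 1.4.6, DESeq2 1.12.3, DESeq and FastQC 0.11.5. The headers show no option for reads with several alignments, so near-identical genes may lose reads, and Fzd3, Ror1, Ryk, Rspo3, Rnf43, Nkd1, Lef1, Tcf7l1 and Tcf7l2 overlap another gene on their strand, which makes their counts less certain. GENCODE M21 gave symbols for 54165 of 54232 identifiers.

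The comparison of genotypes used edgeR 4.0.16 with R 4.3.3 (filterByExpr, TMM, quasi-likelihood with robust=TRUE, 2-sided, Benjamini-Hochberg over all 16752 genes tested, threshold 0.05). CPM used TMM-scaled depth. TPM was computed from counts and the files' gene lengths, and levels are compared between genes on that scale only. The Arhgap31 permutation test used log2(CPM + 1). Alternatives were DESeq2 1.42.0, limma-voom (limma 3.58.1), RLE and upper quartile scaling, no filter, a replicate block and leaving out each library. The main edgeR fit and the DESeq2 and limma-voom fits with every library kept were also run on simulated counts. The other alternatives were not. The limit on what a count of 0 leaves possible covers counting error only. Each SE of a log2 fold change is from the edgeR comparison, which takes in the spread between libraries. Each ± value is an SD between the tumors of a genotype.

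Values in every library are given for genes called by either tool, with an unadjusted p under 0.05, without overlap between genotypes, or among the 3 highest of their role by TPM. For pathway lists outside the set, genes called or the 2 with the smallest p are named. The members and lists were chosen with earlier results of these data known.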

Additional observations from a re-analysis of the deposited data

How the results depend on the processing

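Counts of calls depended on the tool. DESeq2 called 833 genes and 2 Wnt genes, and edgeR with no filter on low counts called 38 genes and 0 Wnt genes, against 0 and 0 in edgeR as reported. With 1 library left out, in edgeR or DESeq2, genes called numbered between 0 and 1626, Wnt genes called between 0 and 6, and Wnt genes with an unadjusted p under 0.05 between 6 and 16. The median log2 fold change of the Wnt genes was then between 0.27 (without fx1) and 0.64, and it was 0.33 with the replicate number as a block. Arhgap31 had a log2 fold change of -2.40 in DESeq2 and between -2.80 and -2.02 with 1 library left out, and DESeq2 called it in each of its 7 fits. Beyond Ror2 and Sfrp4, DESeq2 called Wnt5a, Fzd9 and Ror1 without fx1, Fzd1, Fzd5, Rnf43 and Nkd1 without fx2, Dkk3 without fx3 and Wnt4 without wt3.

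Of 738 log2 fold changes of the 41 tested Wnt genes under the alternatives, 48 changed sign, in 13 genes, and the cause was not tested. Leaving out 1 library gave ranges of -2.26 to 1.67 for Wnt5a, -0.66 to 0.12 for Wnt5b, -1.03 to 0.26 for Wnt7b, -0.060 to 0.53 for Wnt9a and -0.65 to 0.30 for Wnt10b. Among receptors and the R-spondin module the ranges were -0.35 to 0.20 for Fzd3, -0.13 to 0.72 for Fzd4, -0.45 to 1.23 for Rspo3 and -0.18 to 0.18 for Znrf3. They were -0.073 to 0.17 for Axin1, -0.26 to 0.16 for Axin2, -0.22 to 0.18 for Porcn and -0.36 to 0.31 for Tcf7l2. Limma-voom gave -0.48 for Wnt5a and -0.020 for Axin2, and upper quartile scaling gave -0.020 for Axin2. With the replicate number as a block, Wnt5a was at -0.95 and Axin2 at -0.00844, edgeR called 0 genes, and 11 Wnt genes had an unadjusted p under 0.05. The numbers gave no sign of pairing the libraries. As deviations from the genotype means, same-numbered libraries correlated between -0.095 and 0.057, and 0 of 6 correlated best with their own number. Such correlations among so few libraries could not exclude a shared batch. With 3 libraries a genotype, and levels of a few counts for Wnt4, Wnt2 and Wif1, a difference that missed the threshold is not shown to be absent.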
